A study of Mus musculus with 6 samples.

Results

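Rbm3 and Cirbp encode the cold-inducible RNA-binding proteins of mammals. They were read through 3 of 45037 probe sets, and 2 of 19324 annotated genes, on arrays of the mouse brain without its cerebellum. Every probe set whose platform annotation lists Rbm3 or Cirbp was taken. For Rbm3 these are 1429169_at and 1422660_at, which both also list the pseudogene Rbm3-ps. For Cirbp there is 1416332_at alone, with no other gene listed. The genes were chosen by the difference between genotypes that 1429169_at showed in these same arrays, so the differences of the members between the genotypes are given as a description and carry no test.

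The study set 3 mice deficient in Gb5 (Gb5ko, replicates 1 to 3) against 3 wild-type mice (Gb5wt, replicates 4 to 6), with 1 array of total RNA per mouse. Gb5 is the product of Gnb5 on chromosome 9, a G protein beta subunit unlike the others that works in complex with RGS proteins of the R7 family. Both groups came from littermates of like age and sex, kept in a room of controlled temperature, and the tissue was frozen after dissection, per the labels. The age, the sex of each mouse, the strain, the way the Gnb5 allele was made and the cells in which it is lost are not stated in the sources at hand. The series design calls the samples biological replicates of mice. Sex-linked transcripts put Gb5ko replicate 2 in doubt. It read 11.3 in Y-linked Eif2s3y and 8.31 in Xist, made in female cells. That Xist level lay between the 4.96 of Gb5wt replicate 4 and the 10.6 to 10.8 of the other arrays. A single mouse of either sex would not be expected to show both transcripts together. Without Gb5ko replicate 2, the differences between genotypes for 1429169_at, 1422660_at and Cirbp were -1.97, -0.09 and 0.38.

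Proteins of this family carry an RNA recognition motif followed by a glycine- and arginine-rich tail. Both transcripts and proteins rise when mammalian cells are cooled mildly, and they decline with heat. The proteins bind other transcripts and affect their stability, their choice of polyadenylation site and their translation. In the mouse brain RBM3 is known for the restoration of synapses after cooling. In cultured mouse fibroblasts CIRBP is known for relaying temperature cycles to clock transcripts. Rbm3 lies on the X chromosome, Rbm3-ps on chromosome 1 and Cirbp on chromosome 10 in the RefSeq gene table.

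The probe sets of Rbm3 disagreed. One read about 2 log2 units lower in mice without Gb5, and the far brighter one read nearly the same in both genotypes. The dim probe set 1429169_at read 4.11, 4.06 and 4.16 in Gb5ko replicates 1 to 3, against 6.41, 5.99 and 5.93 in Gb5wt replicates 4 to 6, as log2 levels normalized by the authors. All Gb5ko arrays lay below all Gb5wt arrays, with a gap of 1.77 between the nearest arrays of the groups. Group means were 4.11 ± 0.047 in Gb5ko and 6.11 ± 0.26 in Gb5wt (SD, n = 3 each). The difference, Gb5ko minus Gb5wt, was -2.00 ± 0.14 (SE of the limma fit), with a 95% interval from -2.31 to -1.69, which is 4.00-fold lower in Gb5ko on this probe set. Ranked by level, the Gb5ko mean stood at percentile 30.0 of the probe sets, against 53.1 for the Gb5wt mean. No detection calls were used here, so the Gb5ko level was not shown to lie above background, and the fold may be understated.

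The bright probe set 1422660_at read 11.98, 12.05 and 11.76 in Gb5ko, against 11.98, 11.96 and 11.95 in Gb5wt. The groups overlapped, and the Gb5wt arrays lay within 0.029 of one another. Means were 11.93 ± 0.15 in Gb5ko and 11.96 ± 0.015 in Gb5wt (SD, n = 3 each), at percentiles 97.7 and 97.7 of all probe sets. The difference was -0.03 ± 0.11, with a 95% interval from -0.28 to 0.21.

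**Figure D1:**
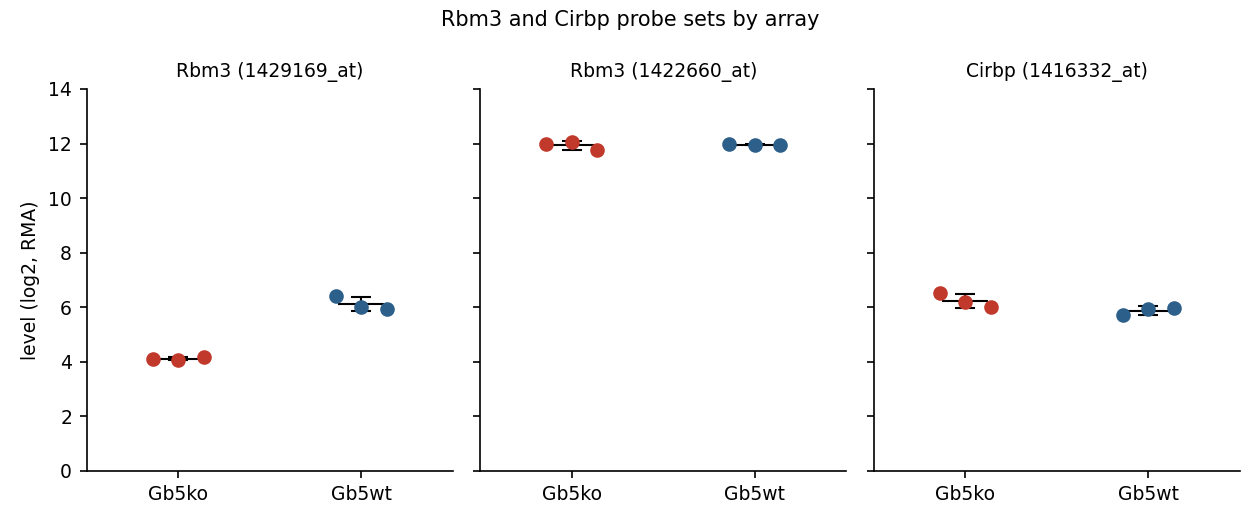
Log2 level of each Rbm3 and Cirbp probe set (vertical axis) in Gb5ko and Gb5wt brains, 1 point per array, with the mean and SD of 3 arrays as bars. The Gb5ko arrays of 1429169_at sit between 4.06 and 4.16, below all Gb5wt arrays, while 1422660_at sits between 11.76 and 12.05 in both groups.

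Within each array, the gap between the Rbm3 probe sets is not touched by a shift that all probe sets of an array share. The level of 1422660_at minus that of 1429169_at was 7.87, 7.98 and 7.60 in Gb5ko, against 5.57, 5.96 and 6.02 in Gb5wt. The mean gap was 7.82 ± 0.20 in Gb5ko and 5.85 ± 0.25 in Gb5wt (SD, n = 3 each), 1.97 wider in Gb5ko. Levels of different probe sets depend on how their probes hybridize, so only the change in the gap between genotypes can be read, not its size within an array. Which Rbm3 transcripts, or which part of them, each probe set reads is not stated in the sources at hand, and signal from Rbm3 and from Rbm3-ps cannot be told apart on either.

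Cirbp read slightly higher without Gb5, close to the spread between arrays. Its probe set 1416332_at read 6.50, 6.17 and 6.00 in Gb5ko, against 5.70, 5.93 and 5.98 in Gb5wt. The groups did not overlap, but the lowest Gb5ko array was only 0.023 above the highest Gb5wt array. Means were 6.23 ± 0.25 in Gb5ko and 5.87 ± 0.15 in Gb5wt (SD, n = 3 each), near the middle of all probe sets at percentiles 54.1 and 50.5. The difference was 0.36 ± 0.15, with a 95% interval from 0.03 to 0.68, or 1.28-fold higher in Gb5ko. It dropped to 0.22 without Gb5ko replicate 1, the array with the highest Cirbp level.

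Over all probe sets, groups did not overlap with Gb5ko lower at 8.95% and with Gb5ko higher at 12.5%. Cirbp is among those higher and 1429169_at among those lower. A limma adjusted p under 0.05 was reached by 12 of 45037 probe sets, or 0.0266%, and 1429169_at is one of them. That is the contrast it was chosen on, so nothing is read from it. Its difference ranked 8 among all probe sets ordered from the most negative. The probe sets next to it in that order were 1434411_at of Col12a1, a collagen chain gene, at -2.08, and 1437323_a_at of Iapp, the gene of the islet hormone amylin, at -1.83. The size of the Cirbp difference was exceeded by 9.04% of probe sets, and that of 1422660_at by 87.0%.

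**Figure D2:**
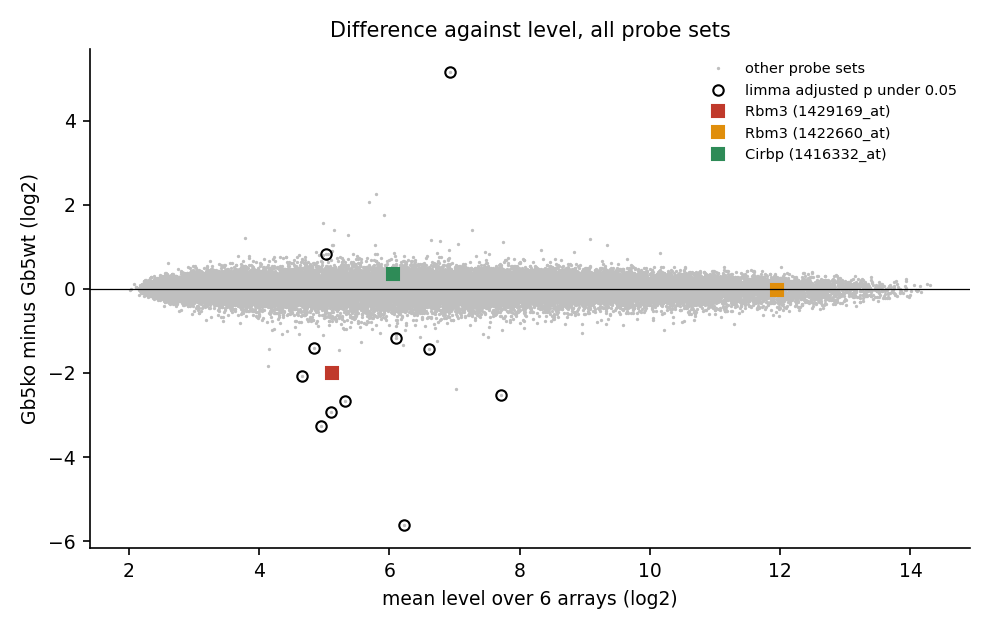
Difference Gb5ko minus Gb5wt (log2, vertical axis) against the mean log2 level over 6 arrays (horizontal axis), 1 grey point per probe set. Open circles mark probe sets with a limma adjusted p under 0.05, squares mark Rbm3 and Cirbp, and the red square at -2.00 is itself one of the 12 that passed.

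How the members varied across the arrays of 1 genotype is given as a description. Deviations from the genotype mean, taken over the 6 arrays, gave a Pearson r of -0.07 between the Rbm3 probe sets. It was 0.47 between Cirbp and 1422660_at and -0.56 between Cirbp and 1429169_at. These values rest on 6 arrays that share their normalization and describe only these samples. The Rbm3 probe sets varied mostly in different groups. The range of 1429169_at was 0.095 in Gb5ko and 0.48 in Gb5wt, and that of 1422660_at was 0.29 and 0.029. The r between them could thus hardly lie far from 0, and whether they vary together cannot be read from it. In Gb5wt, 1429169_at was highest in replicate 4, where Cirbp was lowest. In Gb5ko, 1422660_at was lowest in replicate 3, where Cirbp was lowest too.

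The probe sets of other genes are given for scale. Rbm3 was chosen for this disagreement, so its place among them is fixed by that choice and supports nothing. Among 9010 genes with 2 or more probe sets that list no other gene, the largest and smallest difference of a gene lay a median of 0.24 apart, and 95% of genes had a spread of 0.64 or less. The Rbm3 probe sets, which are outside this set because they also list Rbm3-ps, lay 1.97 apart. At least that spread was found in 6 genes, 0.0666% of the set. They were the targeted gene Gnb5, Tmod3, Tmem30a and Col12a1 on chromosome 9, Guca1b on chromosome 17 and Pdxdc1 on chromosome 16, named here after their values were seen. Rbm3 and its pseudogene lie on neither chromosome 9, 16 nor 17.

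**Figure D3:**
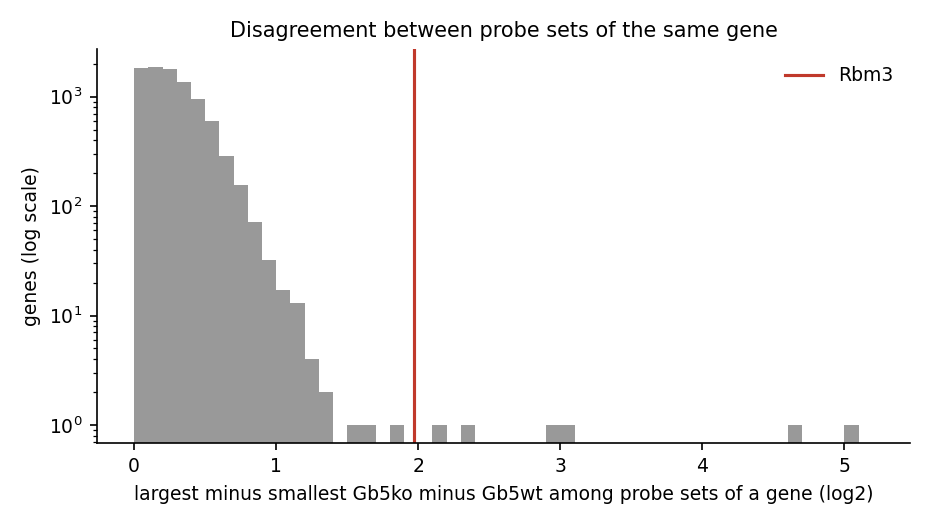
Number of genes (log scale, vertical axis) by the spread of Gb5ko minus Gb5wt among their probe sets (log2, horizontal axis), for 9010 genes with 2 or more probe sets. The red line marks Rbm3 at 1.97, which 6 of these genes reached or passed.

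Most probe sets that share an annotation with a pseudogene differed little. In all, 53 probe sets list a gene together with its own pseudogene. The 52 other than 1429169_at differed by -0.47 to 0.37, with a median of -0.02, and 48 of them lay within 0.3 of no difference. The 52 include the bright probe set of Rbm3. Over all probe sets, 9.04% exceeded the Cirbp difference of 0.36 in size, which is a different cut from 0.3. The share of all probe sets within 0.3 was not counted. Whether the 52 differed less than other probe sets thus cannot be read from these values. Differences smaller than 0.36 were common on the array, and nothing is read from the annotation. This comparison was chosen after the values were seen.

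Genes next to the members on the chromosome were read to see how each locus behaved. In the order of the RefSeq table, 10 of the 20 annotated genes nearest to Rbm3 were measured, and 0 passed the limma adjusted threshold, where 0.022% of all genes did. At an unadjusted p under 0.05, 1 was higher in Gb5ko and 0 were lower, against 9.89% and 5.68% of all genes. The higher one was Rbm3os, a long noncoding RNA that overlaps Rbm3 in that table and carries the suffix for opposite strand. Its probe set read 4.07, 4.11 and 3.76 in Gb5ko, against 3.65, 3.61 and 3.72 in Gb5wt. That is a difference of 0.32 ± 0.12 at a low level, and it did not pass (limma adjusted p = 0.285). It lies on the opposite side of 0 from the 1429169_at difference. On the other side of Rbm3, the nearest measured gene Wdr13, for a WD-repeat protein, differed by -0.03 ± 0.12 (limma adjusted p = 0.933). The neighbours ranged from -0.15 to 0.32, so no measured gene beside Rbm3 showed a difference near -2.00.

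Around Cirbp, 17 of 20 neighbours were measured and 0 passed, while by unadjusted p under 0.05, 4 read higher and 0 lower. The 4 are 23.5% of the measured neighbours, against 9.89% of all genes. The median difference over the neighbours was 0.16, with a range from -0.11 to 0.60, against a median of 0.05 over all 18193 genes. The nearest, Midn, for the ubiquitin-like protein midnolin, and Fam174c, differed by -0.06 ± 0.10 and -0.10 ± 0.12 (limma adjusted p = 0.813 and 0.732). The 4 higher ones were Arhgap45 (0.60), Pwwp3a (0.38), Ndufs7, a complex I subunit gene (0.33), and Cbarp, for a regulator of calcium channel beta subunits (0.29), named here because the count is small. The difference of Cirbp itself falls inside the range of its neighbours. Near Rbm3-ps on chromosome 1, 6 of 20 neighbours were measured, a count added after the data were seen. They differed by -0.32 to 0.13, with a median of -0.05, and 0 passed. At an unadjusted p under 0.05, 0 read higher and 1 lower, which is 16.7% against 5.68% of all genes.

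**Figure D4:**
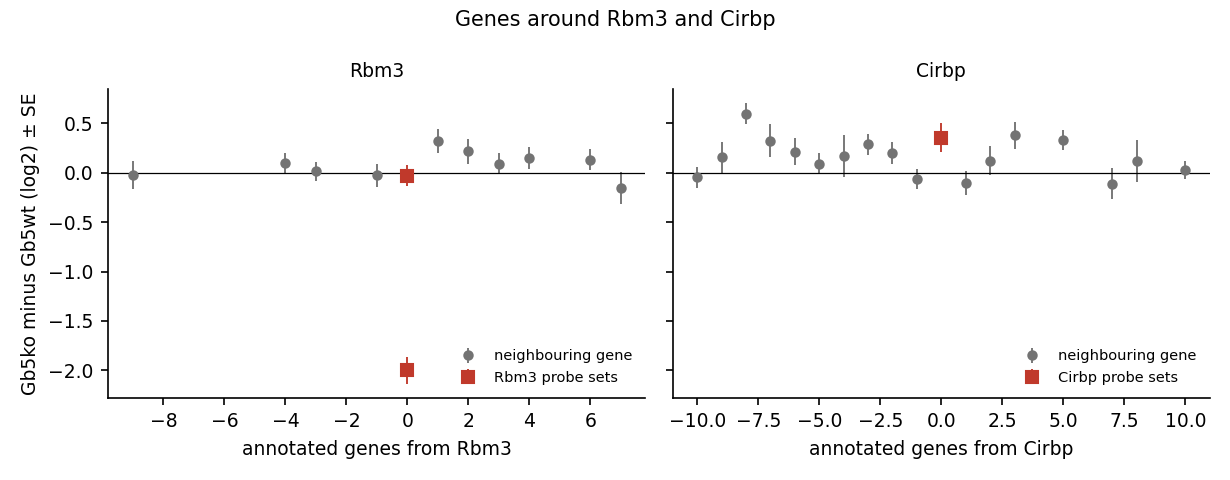
Difference Gb5ko minus Gb5wt (log2, with the SE of the limma fit) for measured genes within 10 annotated genes of Rbm3 (left) and Cirbp (right), placed by their order on the chromosome, with the members as red squares at 0. The neighbours of Rbm3 lie between -0.15 and 0.32 and those of Cirbp between -0.11 and 0.60.

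Other genes linked to cold-inducible RNA-binding proteins were described by 6 lists, with each gene read through its brightest probe set that lists no other gene. Of 92 genes measured in them, 0 passed the limma adjusted threshold, and 16 had an unadjusted p under 0.05. Those 16 are 17.4%, near the 15.6% of all genes. The relatives with an RNA recognition motif and a glycine-rich or similar region numbered 15 measured of 17. At an unadjusted p under 0.05, 0 read higher and 3 lower, with a median over the list of -0.03. The 3 are 20% of the list, against 5.68% of all genes lower. They were Hnrnpa2b1, for an abundant nuclear protein that packages transcripts (-0.43 ± 0.10, limma adjusted p = 0.203), Msi2, for the translational regulator Musashi 2 (-0.38 ± 0.13), and Tia1, for a stress granule protein (-0.29 ± 0.10). The closest family members Rbmx and Rbmxl1 differed by -0.16 and 0.08.

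Genes with a cold shock domain, an unrelated RNA-binding fold, were measured for 7 of 8. At an unadjusted p under 0.05, 1 read higher and 0 lower, with a median of -0.05. The 1 is 14.3% of the list, against 9.89% of all genes higher. Csdc2, for a cold shock domain protein enriched in brain, read 11.85, 11.86 and 11.69 in Gb5ko, against 11.31, 11.46 and 11.34 in Gb5wt. These groups did not overlap, yet the difference of 0.43 ± 0.10 did not pass (limma adjusted p = 0.201). Ybx1, for the translational regulator YB-1, differed by 0.29 ± 0.14, and Ybx2, its germ cell relative, by 0.27 ± 0.20.

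Genes that take part in the induction of RBM3 and CIRBP, or that were linked to them as targets or in stress responses, were all 16 measured. At an unadjusted p under 0.05, 1 read higher and 2 lower, with a median of -0.06. These are 6.25% and 12.5% of the list, against 9.89% and 5.68% of all genes. Nfe2l2, for the antioxidant response factor NRF2, differed by -0.45 ± 0.13 (limma adjusted p = 0.239), and Srsf5, for a splicing factor of the SR family, by -0.35 ± 0.11. Rpa2, for a subunit of replication protein A whose transcript CIRBP binds in human cells, differed by 0.23 ± 0.10. Rtn3, which acts downstream of RBM3 in synapse protection in mice, and Ntrk2, the TrkB receptor gene through which cooling raises RBM3 there, differed by only -0.09 ± 0.10 and -0.04 ± 0.10.

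The heat shock response runs opposite to the cold-inducible proteins when temperature changes. Of 20 genes measured from 22, 16 had a negative difference, with a median of -0.07 against 0.05 over all genes, and 59.9% of all genes were positive. By unadjusted p under 0.05, 0 read higher and 2 lower. The 2 are 10% of the list, against 5.68% of all genes. Serpinh1, for the collagen chaperone HSP47, differed by -0.54 ± 0.10 (limma adjusted p = 0.173). The inducible chaperone gene Hspa1b differed by -0.30 ± 0.13 and the constitutive Hspa8 by -0.22 ± 0.10.

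Circadian clock genes, to which CIRBP was tied in fibroblasts, were measured for 21 of 21. By unadjusted p under 0.05, 5 read higher and 0 lower, with a median of 0.07. The 5 are 23.8% of the list, against 9.89% of all genes higher by the same measure. Nr1d1, for the repressor REV-ERB alpha, read 8.23, 7.75 and 7.75 in Gb5ko, against 7.55, 7.26 and 7.43 in Gb5wt. It differed by 0.50 ± 0.15 and did not pass (limma adjusted p = 0.248). Dbp, for an output transcription factor of the clock, differed by 0.32 ± 0.12, and Nfil3, for a repressor of the same sites, by 0.31 ± 0.12. Clock itself differed by -0.09 ± 0.10. The sources at hand give no hour of dissection.

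Genes of thermoregulation in the brain were measured for 13 of 19. By unadjusted p under 0.05, 0 read higher and 2 lower, with a median of 0.01. The 2 are 15.4% of the list, against 5.68% of all genes. They were Slc25a27, for the mitochondrial carrier UCP4 (-0.49 ± 0.12, limma adjusted p = 0.201), and the leptin receptor gene Lepr (-0.29 ± 0.13). The heat-sensing channel gene Trpv1, dim in both groups, differed by 0.16 ± 0.11.

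**Figure D5:**
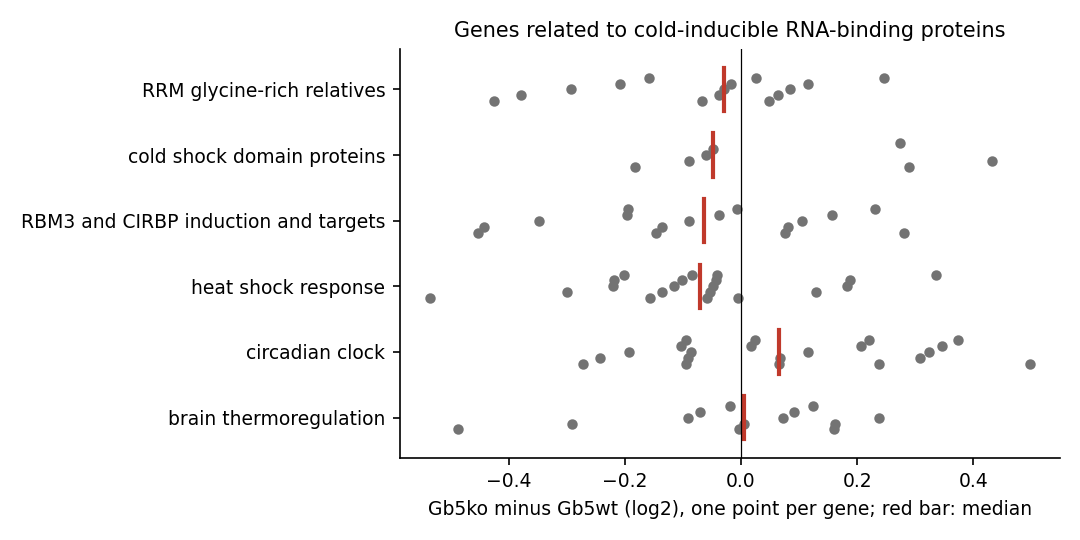
Difference Gb5ko minus Gb5wt (log2, horizontal axis) for each measured gene of 6 lists related to the cold-inducible proteins, 1 point per gene, with the list median as a red bar. Medians lie between -0.07 for the heat shock response and 0.07 for the circadian clock, and 0 of the 92 genes passed the limma adjusted threshold.

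The pattern of 1429169_at across arrays was compared with 19447 probe sets of 1 gene and at least median level. Highest in Pearson r over the 6 arrays were Ranbp6 (0.997), an importin relative, Morf4l2 (0.997), a chromatin protein gene, Sntb1 (0.997), for beta-1-syntrophin, Pno1 (0.995), a ribosome assembly gene, and Atp2a2 (0.994), the calcium pump SERCA2. All had a lower mean in Gb5ko, as that likeness requires, but by far less, from -0.46 for Sntb1 to -0.16 for Atp2a2, and 0 of the 5 passed. For Cirbp the closest were Gpatch4 (0.999), Pcbp4 (0.996), Eri3 (0.996), Fndc4 (0.996) and Angel2 (0.995), with differences from 0.10 to 0.58 and 0 passing. These genes are the top of 19447 candidates over only 6 arrays, so such values of r describe the choice and no more. With the genotype means removed, r was between 0.994 and 0.998 for the 5 closest to Cirbp and between 0.78 and 0.89 for the 5 closest to 1429169_at.

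The labels and the dissection were checked on the same arrays. Gnb5 read 3.67, 3.00 and 3.56 in Gb5ko, against 8.79, 8.98 and 9.30 in Gb5wt, a fall of 5.62 ± 0.19 (limma adjusted p = 4.48e-06). Correlations between arrays ran from 0.989 to 0.996 across all probe sets. Neuronal markers were bright, with a mean level over the list from 12.3 to 12.4 in every array. Cerebellar markers were higher at 6 of 8 genes, with a median of 0.21 and list means of 7.94 to 8.14 in Gb5ko and 7.73 to 7.94 in Gb5wt, and 0 passed. Among them Cbln1 was at 11.0 in Gb5ko and 10.7 in Gb5wt, Zic1 at 10.2 in Gb5ko and 10.5 in Gb5wt, and Gabra6 at 3.48 in Gb5ko and 3.18 in Gb5wt. The 3' minus 5' control signal for actin, a log2 measure of RNA integrity, was 3.22 to 3.31 in Gb5ko and 3.04 to 3.40 in Gb5wt. For Gapdh it was 1.16 to 1.30 in Gb5ko and 1.03 to 1.38 in Gb5wt. The groups overlapped on both, but the 3' signal was the stronger in every array. Overlap compares the groups and does not show that the RNA was intact.

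Sex-linked transcripts differed between arrays within each group, which bears on an X-linked gene such as Rbm3. Xist, the RNA that coats the silenced X, had levels of 10.7, 8.31 and 10.6 in Gb5ko, against 4.96, 10.8 and 10.7 in Gb5wt. Y-linked Eif2s3y had levels of 2.96, 11.3 and 6.97 in Gb5ko, against 11.3, 6.05 and 4.05 in Gb5wt. The arrays highest in Eif2s3y are Gb5ko replicate 2, which had the lowest 1429169_at level of all arrays, and Gb5wt replicate 4, which had the highest. Y-linked Kdm5d and Uty were at 6.79 and 5.46 in Gb5ko replicate 2, and at 7.21 and 6.41 in Gb5wt replicate 4. In the other arrays Kdm5d read 2.59 to 3.08 and Uty 2.78 to 3.11. Gb5ko replicate 2 thus had Y-linked signal beside an intermediate Xist level. These conflict within 1 mouse, and its identity was not settled here. With Eif2s3y as a covariate the differences were -2.00 for 1429169_at, -0.03 for 1422660_at and 0.35 for Cirbp. Mean Eif2s3y was 7.07 in Gb5ko and 7.12 in Gb5wt, so this covariate could hardly move them. A part of sex in these differences was not tested.

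Pituitary markers varied as well and were higher at 8 of 8 genes, with a median of 0.47. Their mean level over the list ran from 4.28 to 6.59 in Gb5ko and 4.29 to 4.89 in Gb5wt, highest in Gb5ko replicate 3. Choroid plexus markers were lower at 6 of 8 (median -0.09, list means 6.68 to 7.05 in Gb5ko and 6.78 to 7.15 in Gb5wt). Myelin markers were lower at 7 of 7 genes (median -0.24, list means 10.6 to 11.1 in Gb5ko and 11.0 to 11.3 in Gb5wt), and microglial markers higher at 6 of 8 (median 0.25, list means 7.86 to 8.01 in Gb5ko and 7.71 to 7.83 in Gb5wt). Astrocyte markers were lower at 6 of 8 (median -0.16, list means 10.6 to 10.8 in Gb5ko and 10.8 to 11.0 in Gb5wt). The gap junction genes Gjb6 and Gja1 were at -0.59 and -0.45, while Aldh1l1 and Gfap went the other way, at 0.35 and 0.01. Blood markers were lower at 3 of 4 (median -0.18, list means 4.48 to 4.66 in Gb5ko and 4.77 to 4.97 in Gb5wt). The red cell anion exchanger gene Slc4a1 was at -0.93, while Epb42 went the other way, at 0.29. Hba-a1 was dim in both groups, so its part in the list mean says little about blood. None of these marker genes passed the limma adjusted threshold, which only 0.022% of all genes reached. Over all genes, 59.9% were positive. At an unadjusted p under 0.05, 9.89% of all genes read higher and 5.68% lower. Higher were 50% of the microglial list, 25% of the blood list and 12.5% of the astrocyte and pituitary lists. Lower were 37.5% of the astrocyte list, 28.6% of the myelin list and 25% of the choroid plexus and blood lists. The other shares of these lists were 0. In whole tissue, fewer cells of a type and less RNA per cell cannot be told apart. The part of cell makeup in the Cirbp difference was not tested.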

How the data were processed

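Values were deposited as log2 expression levels that the authors had normalized. RMA and Partek, with no version, are the tools listed, per the submitters' processing notes. RMA corrects background, brings arrays to a common distribution and summarizes probes on the log2 scale. Array medians ran from 5.81 to 5.85, and no further normalization was applied. Precision is limited by the number of arrays. After removal of 64 controls, limma 3.58.1 (lmFit, then eBayes) was run in R 4.3.3 on 45037 probe sets, two-sided, with Benjamini-Hochberg adjustment over all of them. The threshold was an adjusted p under 0.05. The fit was checked on simulated data.

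Members and gene lists were chosen with earlier results of these data known. Named are every member probe set, the 3 smallest p of each of the 6 gene lists related to the cold-inducible proteins, the nearest measured neighbours, the 5 closest patterns and Gnb5, and others where a count needed them. Lists of marker genes were read as wholes, with single genes named where they bear on the dissection or the sex of the mice. Gene names follow the platform annotation, of which 34741 of 34945 probe sets with 1 gene matched the RefSeq table of GRCm38.p6. That table gave chromosomes and gene order only. The Rbm3 probe sets list a second gene and were read by their IDs. Figures were drawn with matplotlib 3.10.9.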

Additional observations from a re-analysis of the deposited data

How the results depend on the processing

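No paired analysis was made because the sample titles give genotype and replicate but not the litter of each mouse. The fit therefore takes no account of litters. With 1 array left out, the difference of 1429169_at lay between -2.09 and -1.85, that of 1422660_at between -0.09 and 0.05, that of Cirbp between 0.22 and 0.47, and the gap between the Rbm3 probe sets widened by 1.83 to 2.08. Under other normalizations, filters, variance priors, array weights and the Eif2s3y covariate, the same values lay between -2.02 and -1.93, -0.05 and -0.02, 0.24 and 0.36, and 1.88 and 2.01. A filter at the median level removed 1429169_at, so it gave no value there. The 12 probe sets that passed became 23 with trend and robust eBayes and 27 with array weights, and the cause was not tested. At an unadjusted p under 0.05 they numbered 6493. The count over the related gene lists was 0 in each fit at the adjusted threshold and 16 unadjusted, and that over neighbours of Rbm3 and Cirbp was 0 in each fit and window. Without detection calls, dim signal such as that of 1429169_at in Gb5ko cannot be parted from background.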

Other observations

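Rbm3 was not alone in having a probe set that read lower beside one of higher mean level that did not. Among 9010 genes with several probe sets, 10 had at least 1 probe set lower by 1 or more in Gb5ko. In 2 of the 10 the brightest probe set lay within 0.1 of no difference. They were Tmod3, an actin filament capping gene on chromosome 9, with -2.94 at its lowest probe set and 0.09 at its brightest, and Kcnq5, a potassium channel gene on chromosome 1, with -1.14 and 0.02. Pdxdc1 and Cep162 lay outside that limit because their brightest probe sets read higher. Their lowest probe sets were at -2.38 and -1.43, and their brightest at 0.55 and 0.42. The lowest of Cep162 was not dim as in Rbm3. It read 7.33 in Gb5wt and 5.90 in Gb5ko, where the brightest had a mean level of 6.88. These genes were picked after their values were seen, and nothing was tested on them.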
